A study of Mus musculus with 12 samples.

Results

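Small intestinal scrapings of old and young mice that had both eaten a high-fat diet were compared, segment by segment. The comparison used 6 of the 12 arrays of the series: 3 arrays of old mice on the high-fat diet and 3 arrays of young mice on the same diet, each set holding a proximal, a middle and a distal segment, and the old and the young array of a segment formed a pair. All animals were male C57BL/6J mice without a transgene or a drug, aged 21 months in the old group and 4 months in the young group. The high-fat diet gave 45% of its energy as fat, mainly palm oil, and was eaten for 2 weeks. A further 6 arrays of old and young mice on a low-fat diet, with 10% of energy as fat, serve below as a second age comparison in other mice. RNA of 8 old or 6 young mice was pooled for each array, with the same mice behind the 3 segments of an age. The comparison therefore rests on 1 pool per age. A p-value over the segments measures how alike the age difference was along the gut of these pools and not how mice of an age vary. The lining was scraped off as mucosa with submucosa, so that epithelium, connective tissue, immune cells and some muscle were measured together. In such bulk samples fewer cells of a type and less RNA per cell cannot be told apart.

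The epithelium of the small intestine is renewed from crypts and changes along its length. Enterocytes of the proximal part take up most of the fat and sugar, and those of the distal part, the ileum, reclaim bile acids and face a denser microbiota. Paneth cells at the crypt base and enterocytes themselves secrete antimicrobial proteins, and the distal part holds most of the lymphoid follicles. A fat-rich diet supplies ligands of the receptor PPAR alpha, which raises genes that burn fatty acids.

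Levels are given as Robust Multi-array Average (RMA) values on the log2 scale, where a difference of 1 is 2-fold, and every difference is old minus young. A total of 11920 genes was tested after genes with an intensity of 50 or less on every array (5.64 on the log2 scale) and pancreatic acinar genes had been left out. The medians of the 6 arrays lay between 5.57 and 5.70. Over all genes, the age difference had an SD of 0.194 proximally, 0.19 in the middle segment and 0.272 distally, with medians of 0.03, 0.02 and 0.00. Markers of enterocytes had list medians of 0.02, 0.02 and 0.05 for 6 genes, with distal values from −0.01 to 0.57.

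A 2-fold age difference was seen for 101 genes in at least 1 segment, and for 41 genes when the distal segment was left out, a count added after seeing the data. Proximally, 6 genes stood above 2-fold in old mice and 19 below it, which is 0.0503% and 0.159% of the genes tested. The middle segment had 9 such genes above (0.0755%) and 14 below (0.117%). For the distal segment the counts were 4 above (0.0336%) and 62 below (0.52%). These are differences between 1 array and 1 other, and they carry no replicate error. The old high-fat distal array stood apart from the other distal arrays of the series in its immune, cell cycle and crypt gene sums, given below. Its sums of smooth muscle, fibroblast, endothelial, Paneth cell and heat shock genes were also the lowest of the 4 distal arrays. Its enterocyte sum was the highest. Only 12 genes passed 2-fold in the same direction in at least 2 segments, and 1 of them, Rps4l, passed it in all 3.

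Over the 3 pairs, limma called 1 gene lower (0.00839% of those tested) and 0 genes higher (0%) in old mice at an adjusted p under 0.05, and at an unadjusted p under 0.05 it counted 545 genes lower and 471 higher. The gene called was Rps4l, a paralog of ribosomal protein S4, a component of the small ribosomal subunit. Rps4l had levels of 6.66, 6.68 and 6.55 in the proximal, middle and distal segment of old mice, against 7.89, 8.14 and 8.04 in young mice. The 3 old arrays all lay below the 3 young arrays. The mean difference of Rps4l was −1.39 (SE 0.09, n = 3 pairs, adjusted p = 0.0235 from limma), and the adjusted p was 0.0898 without the distal pair. When all probe sets of the gene were averaged, the Rps4l difference was −1.08 with an adjusted p of 0.0679. The widely expressed parent gene Rps4x differed by −0.15, 0.01 and −0.26 in the same order of segments, and probes that both genes might share were not examined. Rps4l differed in the low-fat pools by −1.13, −1.62 and −1.74.

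A fit to all 12 arrays, which takes its error also from the low-fat pools, called 2 genes higher (0.0168%) and 5 lower (0.0419%) for the same high-fat contrast. Besides Rps4l these were Tifa, Hspa1a, Reg3b and Reg3g among the lower genes, and Card6 and Cntnap1 among the higher ones; Tifa, Card6 and Cntnap1 were singled out after their values were seen. Tifa is an adaptor that relays bacterial sugar metabolites from inside the cell to NF-kappa B. It had levels of 8.04, 9.04 and 9.29 in old mice, against 9.21, 10.00 and 10.22 in young mice. The groups overlapped because the level climbed along the gut, but each old array was about 1 log2 unit below its young partner. The mean difference of Tifa was −1.02 (SE 0.08, n = 3 pairs), with an adjusted p of 0.0682 from limma in the paired fit and of 0.0192 in the fit to 12 arrays. Tifa differed by −0.56, −0.17 and −0.39 in the low-fat pools.

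Reg3b and Reg3g encode C-type lectins that enterocytes and Paneth cells release into the lumen and that bind bacteria. Reg3b had levels of 11.85, 12.59 and 13.02 in old mice, against 12.68, 13.29 and 13.49 in young mice. Reg3g had levels of 11.46, 12.32 and 12.77 in old mice, against 12.00, 13.02 and 13.29 in young mice. Both genes were among the brighter ones, climbed along the gut at both ages, and were lower in old mice in each segment. The mean differences were −0.67 for Reg3b (SE 0.09, adjusted p = 0.223 from limma over 3 pairs) and −0.58 for Reg3g (SE 0.08, adjusted p = 0.223), and in the fit to 12 arrays the adjusted p-values were 0.0479 and 0.0387. On the low-fat diet Reg3b differed by −0.60, −0.16 and −0.32 and Reg3g by −0.63, −0.26 and −0.30.

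**Figure D1:**
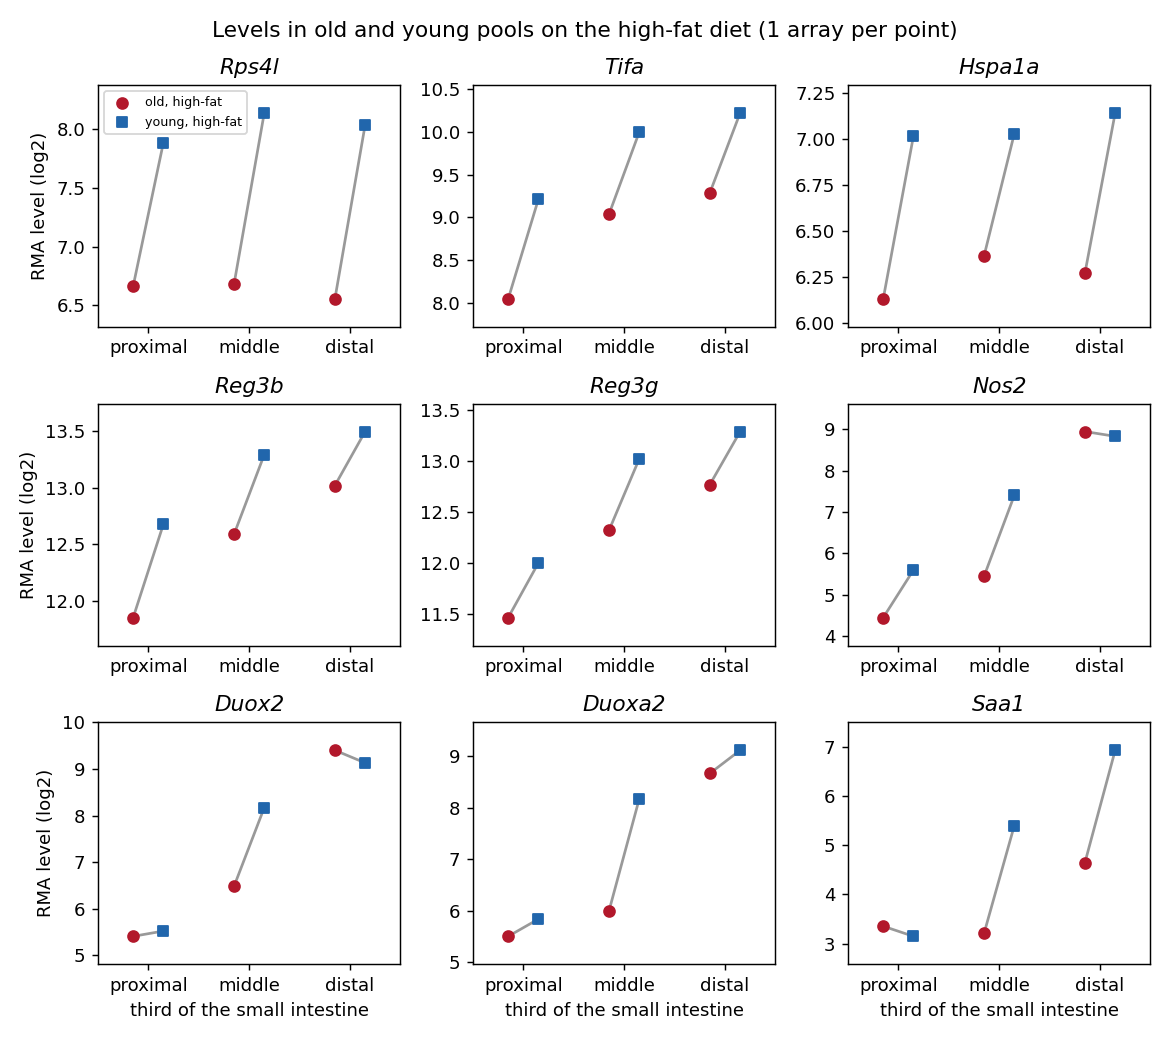
RMA level (log2, y axis) of 9 genes in the proximal, middle and distal segment (x axis) of old (red circles) and young (blue squares) pools on the high-fat diet, 1 array per point, with a grey line joining the pair. Rps4l, Tifa, Hspa1a, Reg3b and Reg3g were lower in old mice in every segment, while Nos2, Duox2 and Duoxa2 differed most in the middle segment; of the Saa1 arrays only the young distal one exceeded the intensity threshold of 5.64.

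Other genes of mucosal defence had larger differences in some segments. Nos2, the inducible nitric oxide synthase, had levels of 4.45, 5.45 and 8.94 in old mice, against 5.60, 7.40 and 8.83 in young mice, of which both proximal arrays and the old middle array lay below the intensity threshold. Duox2, the oxidase that releases hydrogen peroxide at the epithelial surface, had levels of 5.40, 6.48 and 9.40 in old mice, against 5.52, 8.17 and 9.13 in young mice. Its maturation factor Duoxa2 had levels of 5.51, 6.00 and 8.67 in old mice, against 5.84, 8.18 and 9.12 in young mice. For all 3 genes the distal arrays of both ages were within 0.45 of each other, and the middle array of the old pool was far below that of the young pool.

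Saa1, an acute-phase apolipoprotein that epithelium makes on bacterial contact, had levels of 3.35, 3.21 and 4.65 in old mice, against 3.15, 5.40 and 6.93 in young mice. Of these 6 arrays 5 lay below the intensity threshold, all but the young distal one. The difference was −2.29 in the distal segment, and the −2.19 of the middle segment is one between arrays that were both below the threshold. Saa1 also differed by −1.01 and −2.37 in these 2 segments of the low-fat pools. The gasdermin genes Gsdmc2 and Gsdmc4, whose products form membrane pores, were lower in old mice in each segment, with mean differences of −0.76 and −0.78 (adjusted p = 0.281 and 0.223 from limma); both were named after their values were seen. Of 9 tested genes on the list of antimicrobial and acute-phase genes, 0 were called by limma in the paired fit. At an unadjusted p under 0.05 there were 5 lower and 0 higher, beside 545 and 471 of all 11920 genes. In all 3 segments 3 were lower, beside 12.8% of all genes, and the list medians were −0.34, −0.70 and −0.23. Pigr, which carries IgA across the epithelium, had differences of 0.12, 0.08 and 0.16.

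The largest difference of the whole comparison belonged to Fabp6, the bile acid binding protein of ileal enterocytes, in the middle segment. Fabp6 had levels of 4.59, 7.58 and 13.08 in old mice, against 5.48, 11.31 and 13.09 in young mice. Slc10a2, which takes bile acids up from the lumen, had levels of 6.49, 7.79 and 11.65 in old mice, against 6.33, 9.94 and 11.85 in young mice. The distal arrays hardly differed, and the middle array of old mice lay nearer to the proximal level. The exporter subunits Slc51a (−0.62) and Slc51b (−0.30) were also lower in the middle segment, whereas the bile acid receptor Nr1h4 (−0.11) and the hormone gene Fgf15 (−0.15) lay nearer to 0 there. The sulphate transporter Slc13a1 (−1.66) and the sulphite oxidase Suox (−1.49) belonged to the same group of 14 genes over 2-fold lower in the middle segment, as did Plb1 (−1.23), a brush border phospholipase. On the young low-fat arrays, which the comparison did not use, 11 of these 14 genes were over 2-fold higher in the distal than in the middle segment, as were 1.17% of all genes. The 14 genes included Nos2, Duox2, Duoxa2 and Saa1. Whether the place at which the middle segment was divided from the distal one differed between the pools was not tested. The middle segment of the low-fat pools differed by −0.64 for Fabp6 and by −0.64 for Slc10a2.

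The inducible chaperone Hspa1a, a heat shock protein that refolds damaged proteins, was lower in old mice throughout. It had levels of 6.13, 6.36 and 6.27 in old mice, against 7.02, 7.03 and 7.14 in young mice. The mean difference was −0.81 (SE 0.08, n = 3 pairs), with an adjusted p of 0.182 from limma in the paired fit and of 0.0214 in the fit to 12 arrays. Of 11 tested heat shock genes, 10 were lower in all 3 segments, beside 12.8% of all genes tested. In the paired fit limma called 0 of them, with 6 lower at an unadjusted p under 0.05, beside 545 of all 11920 genes. The list medians were −0.20, −0.21 and −0.43, among them Hsph1, a nucleotide exchange factor of Hsp70, with a mean difference of −0.70, and the small heat shock protein Hspb1 with −0.49 (adjusted p = 0.281 and 0.254 from limma). Hspd1, a mitochondrial chaperonin, was the exception, at 0.03 in the proximal and −0.20 and −0.43 in the other segments. On the low-fat arrays, which held other mice, 10 of the 11 genes were lower in all 3 segments as well, beside 1734 of all 11920 genes. The heat shock element, searched as GAANNTTCNNGAA on both strands in the 250 bases before each start listed by RefSeq, was found in 2 of 8 list genes with a promoter (Hspe1 and Hspd1) and in 0.514% of all 27025 genes with one. Of 18 genes of endoplasmic reticulum stress, not all of them chaperones, 11 were lower in all 3 segments, beside 12.8% of all genes tested. This list had smaller medians of the same sign, at −0.11, −0.14 and −0.12. Creld2 (mean −0.34) and Manf (−0.22), both made when proteins misfold in that compartment, were on it.

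Genes of smooth muscle had the largest distal median of the cell type lists. Of 18 tested genes, 13 were lower in all 3 segments, beside 12.8% of all genes, and 0 higher in all 3. The list medians were −0.26, −0.40 and −1.01. Of these genes limma called 0 in either fit. The paired fit had 13 lower at an unadjusted p under 0.05, beside 545 of all 11920 genes. Acta2, the actin of vascular and visceral smooth muscle, had levels of 7.81, 8.80 and 9.19 in old mice, against 8.51, 9.57 and 10.42 in young mice. Myh11, the smooth muscle myosin heavy chain, had levels of 6.62, 7.68 and 8.23 in old mice, against 7.21, 8.37 and 9.64 in young mice. Each old array was below its young partner, by the widest margin in the distal segment. The mean differences were −0.90 for Acta2 (SE 0.12, adjusted p = 0.223 from limma over 3 pairs) and −0.90 for Myh11 (SE 0.16, adjusted p = 0.297). In the proximal segment 5 of the 18 genes lay above 0, up to 0.53 for Lmod1 and 0.28 for Tpm2.

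Distally, 9 members of the smooth muscle list passed 2-fold, among 62 genes in all. The summed intensity of the list there was 3895 in old mice, against 7113 in young mice, and in the proximal segment it was 2655 in old mice, against 2989 in young mice. In the low-fat pools 16 of the 18 genes were lower in all 3 segments, beside 1734 of all 11920 genes, and the list medians were −0.61, −0.48 and −0.89. How much muscle layer came off with each scraping was not tested. In the 250 bases before the start of 15 of these genes with a RefSeq promoter, the CArG box, the site of serum response factor, was found in 1 gene (Myl9), and in 1.62% of all 27025 genes with a promoter, both strands being searched.

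Connective tissue and vessel genes were lower mainly at the ends of the gut. For 16 fibroblast and matrix genes the list medians were −0.40, −0.13 and −0.72, with 13 genes lower in all 3 segments, beside 12.8% of all genes. Ogn (−1.41), a small matrix proteoglycan, Bmp5 (−1.29) and Dcn (−1.08), the collagen-binding decorin, passed 2-fold distally. All 12 endothelial genes were lower at both ends of the gut, with medians of −0.38 and −0.34. In the middle segment 7 of the 12 were lower, with a median of −0.01. Of all 11920 genes 5094 were lower proximally, with 44.2% lower in the middle segment and 50.2% distally. Of 6 adipocyte genes 5 were lower in the distal segment, where their median was −0.45. Of the genes on these lists limma called 0 in either fit. In the low-fat pools the fibroblast medians were −0.63, −0.26 and −0.46 and the endothelial ones −0.49, −0.10 and −0.16. The distal adipocyte median there was −0.78.

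**Figure D2:**
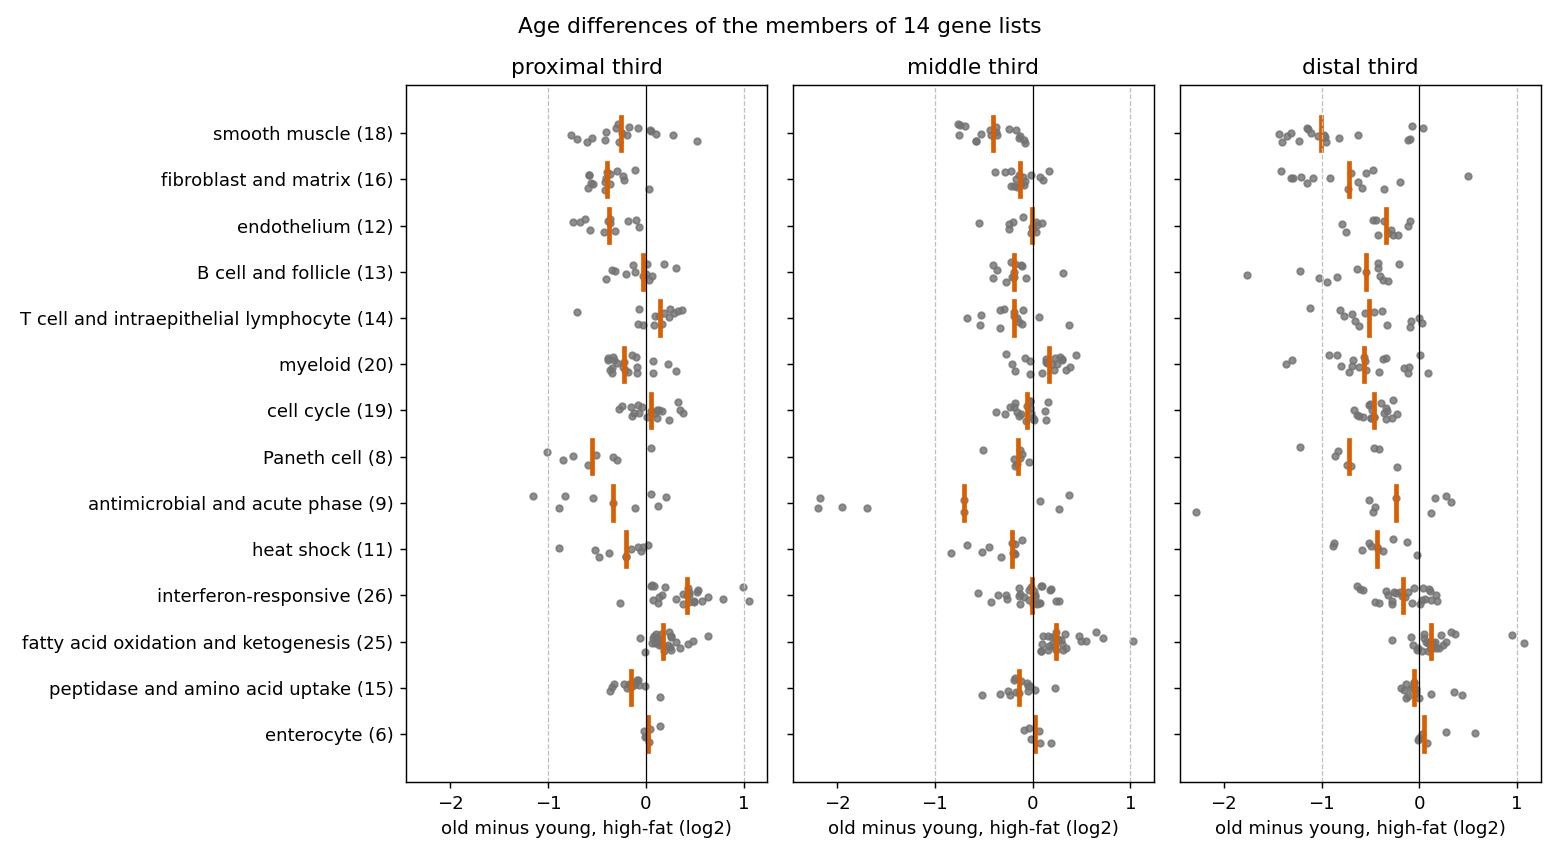
Old minus young difference on the high-fat diet (log2, x axis) of the members of 14 gene lists (y axis, number of tested genes in parentheses) in the proximal, middle and distal segment; grey points are genes, orange bars the list medians and dashed lines 2-fold. Smooth muscle had medians of −0.26, −0.40 and −1.01, interferon-responsive genes had 0.43, −0.01 and −0.16, and the fatty acid oxidation medians lay to the right of 0 in each segment.

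Immune cell genes were lower in old mice in the distal segment, where 50.2% of all genes were lower. All 13 B cell and follicle genes, 13 of 14 T cell genes and 18 of 20 myeloid genes were lower there, with medians of −0.54, −0.51 and −0.56, while in the proximal segment the same lists had medians of −0.02, 0.15 and −0.22. Ms4a1, the B cell surface protein CD20, had levels of 5.23, 5.30 and 5.51 in old mice, against 5.04, 5.57 and 7.28 in young mice. Cd79a, a chain of the B cell receptor, had levels of 6.29, 6.08 and 6.05 in old mice, against 6.26, 6.49 and 7.08 in young mice. Ms4a1 and Cd79a were thus brightest on the young distal array, above the other 5, and Ms4a1 lay below the intensity threshold on those 5. The distal B cell median was 0.03 in the low-fat pools. Among the 4 distal arrays of the series, the old high-fat array had the lowest summed intensity of B cell genes, at 820, against 1389 in young high-fat mice, and the low-fat arrays had 1217 in old mice and 1218 in young mice. The myeloid sum was likewise 3253 in old high-fat mice, against 5072 in young high-fat mice, with 4970 in old and 5179 in young low-fat mice. The T cell sum was 2195 in old high-fat mice, against 3198 in young high-fat mice, with 2817 in old and 3126 in young low-fat mice. This old array was thus low in all 3 immune lists, and every distal value of the high-fat comparison rests on it; its part in the difference was not tested. Follicles are discrete bodies, and the number of them in a scraping was not tested.

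Gzmb, the granzyme of cytotoxic lymphocytes, had levels of 8.56, 7.53 and 6.68 in old mice, against 8.40, 8.20 and 7.80 in young mice. Ly86 (−1.31) and Cd53 (−1.37), both of leukocyte membranes, and C1qb (−0.93), a complement subunit made by macrophages, were lower in the distal segment. The myeloid list had a median of 0.17 in the middle segment, with 6 of 20 genes lower, beside 44.2% of all genes, so its sign differed between segments. Cd4, the co-receptor of helper T cells, went against the T cell list in the proximal segment and was lower throughout, at 5.93, 5.97 and 5.41 in old mice, against 6.62, 6.51 and 6.18 in young mice, with a mean difference of −0.67 (SE 0.08, n = 3 pairs, adjusted p = 0.223 from limma).

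Genes of the cell cycle also differed mainly on the distal arrays, where 50.2% of all genes were lower. All 19 cell cycle genes were lower in old mice in the distal segment, with a median of −0.47 and a range from −0.67 to −0.23, against proximal and middle medians of 0.05 and −0.06. Mcm3, a subunit of the replicative helicase, had levels of 6.14, 6.83 and 6.75 in old mice, against 5.96, 6.99 and 7.42 in young mice. Ccna2 (−0.63), Mcm4 (−0.61) and Plk1 (−0.57) had the next largest distal differences on the list. In the low-fat pools the distal median of the list was 0.01. The old high-fat array was again the lowest of the 4 distal arrays, with a summed intensity of cell cycle genes of 4624, against 6198 in young high-fat mice, and with 5872 in old and 5828 in young low-fat mice. For crypt stem cell genes the sum was 3099 in old high-fat mice, against 4348 in young high-fat mice, with 4250 in old and 4486 in young low-fat mice. These crypt genes had medians of −0.21, −0.10 and −0.33 over 11 genes, 6 of them lower in all 3 segments, beside 12.8% of all genes. Whether the age difference of any of these lists differed between segments could not be tested, because each segment has 1 array per age.

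Of the 62 genes over 2-fold lower in the distal segment, 9 were on the smooth muscle list, 6 on the fibroblast list, 3 on the B cell list, 2 on the myeloid list and 1 on the T cell list. On the low-fat arrays, which come from other mice, 50 of the 62 were lower in old mice in the distal segment, beside 44.9% of all genes, and 13 were over 2-fold lower, beside 0.151% of all genes. Other large distal differences were those of B3galt5 (−1.56), a galactosyltransferase of glycan chains, Tat (−1.46), which breaks down tyrosine, and ccdc198 (−1.41). The 4 genes over 2-fold higher were Gm10400 (1.5), the carbonic anhydrase Car1 (1.5), Gm4787 (1.29) and Pdk4 (1.07).

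Paneth cell genes were lower in old mice at both ends of the gut. Of 8 tested genes 7 were lower in all 3 segments, beside 12.8% of all genes, with medians of −0.55, −0.14 and −0.71. Of these genes limma called 0 in either fit. The paired fit had 8 lower at an unadjusted p under 0.05, beside 545 of all 11920 genes. Ang4, an angiogenin that kills bacteria, had levels of 5.38, 7.90 and 7.50 in old mice, against 6.23, 8.06 and 8.33 in young mice. Itln1, the lectin intelectin, had levels of 9.82, 11.93 and 11.63 in old mice, against 10.40, 12.03 and 12.33 in young mice. The middle arrays of both ages were close, and the proximal and distal arrays were apart. Mmp7, which activates defensins in mice, differed by −0.33, −0.19 and −0.73, and Lyz1, the Paneth cell lysozyme, by −0.30, −0.13 and −0.23. Only Mptx1 went the other way in a segment, at 0.05 in the proximal one. In the low-fat pools the list medians were −0.13, −0.06 and −0.23. Goblet cell genes had medians of −0.02, −0.12 and −0.03.

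In the proximal segment some of the largest differences lay in genes that the pancreas or the stomach expresses strongly. The gastric mucosal genes Gkn1 and Gkn2 differed by −1.45 and −1.22. Of 10 tested stomach genes 9 were lower there, beside 5094 of all 11920 genes, with a median of −0.70. For the 28 acinar genes, which had been left out of the tests, the proximal median was −0.60, and their summed intensity was 84420 in old mice, against 122800 in young mice. In the distal segment the sum was 3332 in old mice, against 4134 in young mice. The proximal acinar difference had the other sign in the low-fat pools, with a median of 0.25 and 26 of the 28 genes higher in old mice. Their sum there was 67480 in old mice, against 57900 in young mice. The proximal stomach median of the low-fat pools was −0.26. Reg3d (−1.26), Serpini2 (−1.16), Gp2 (−1.13) and Pdia2 (−1.03), all expressed in the pancreas, were not on the acinar list and remained among the 19 genes over 2-fold lower; the last 3 were named after their values were seen. The Paneth list member Nupr1 (−1.01) is a stress gene that the pancreas also expresses. The part of carried-over pancreas or stomach in these values was not tested. Slc5a8, a sodium-coupled transporter of short-chain acids, had the largest proximal difference downward among the tested genes, with a level of 5.87 in old mice, against 7.70 in young mice, and differed by −0.31 and 0.12 in the middle and distal segment.

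Interferon-responsive genes were higher in old mice in the proximal segment. Of 26 tested genes 25 were higher there, where 57.2% of all genes were higher, with a median of 0.43, against middle and distal medians of −0.01 and −0.16. Of these genes limma called 0 in either fit. The paired fit had 1 higher and 1 lower at an unadjusted p under 0.05, beside 471 and 545 of all 11920 genes. The promoters of such genes carry a binding site for the factors that interferons activate, the interferon-stimulated response element. Its core GAAANNGAAA was searched on both strands in the 250 bases before each start listed by RefSeq (GRCm38.p6). It was found in 10 of the 18 tested list genes with a promoter and in 3.46% of all 27025 genes with one. The following stretches of 60 bases are those of the 4 genes with the core that had the largest proximal difference, with each match in capitals, where TTTC stands for GAAA of the other strand. A match describes the sequence only.
Rsad2, chr12:26456538-26456597, minus strand: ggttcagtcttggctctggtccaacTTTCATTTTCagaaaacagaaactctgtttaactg
Ifit3, chr19:34583348-34583407, plus strand: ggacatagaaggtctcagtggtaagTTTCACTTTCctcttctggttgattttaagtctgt
Ifit1, chr19:34640760-34640819, plus strand: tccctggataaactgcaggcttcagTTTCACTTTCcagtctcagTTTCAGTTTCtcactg
Trim30a, chr7:104465195-104465254, minus strand: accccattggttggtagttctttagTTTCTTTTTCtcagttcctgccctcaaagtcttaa

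Rsad2, the antiviral enzyme viperin, had levels of 8.56, 6.17 and 6.02 in old mice, against 7.57, 6.26 and 6.09 in young mice. Ifit3, which binds foreign RNA in a complex with Ifit1, had levels of 8.36, 6.40 and 5.67 in old mice, against 7.57, 6.22 and 5.60 in young mice. Ifit1 had levels of 10.23, 8.23 and 7.66 in old mice, against 9.59, 8.19 and 7.81 in young mice. These genes were brightest in the proximal segment at both ages and differed most between the ages there. Mx2, a dynamin-like antiviral GTPase, was the one list member over 2-fold higher, with a proximal level of 6.10 in old mice, against 5.04 in young mice. The old proximal array was the only one of the 6 on which Mx2 exceeded the intensity threshold of 5.64. Trim30a differed by 0.54 and Usp18, which removes the ubiquitin-like ISG15 from proteins, by 0.57 in that segment. Iigp1 (−0.26), a GTPase induced by interferon gamma, was the one member lower there. The 6 tested MHC class II genes, which present antigen, were all higher in the proximal segment, beside 57.2% of all genes, with a median of 0.34. In the low-fat pools the interferon medians were 0.02, −0.08 and 0.18, and the proximal median of the MHC class II list was 0.48.

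Genes that burn fatty acids were slightly higher in old mice in each segment. Of 25 tested genes of fatty acid oxidation and ketogenesis 19 were higher in all 3 segments, beside 18.8% of all genes, and 0 were lower in all 3, with list medians of 0.18, 0.24 and 0.12. Here limma called 0 genes in either fit. The paired fit had 12 higher at an unadjusted p under 0.05, beside 471 of all 11920 genes. Pdk4, a kinase that holds back glucose oxidation and is a PPAR alpha target, had levels of 9.94, 9.74 and 8.84 in old mice, against 9.51, 9.01 and 7.77 in young mice. Cyp4a10, which starts omega-oxidation of fatty acids, had levels of 8.63, 8.55 and 6.00 in old mice, against 8.32, 7.52 and 5.05 in young mice. Each old array was above its young partner for both genes, while the spread along the gut was wider than the age difference. The mean differences were 0.74 for Pdk4 (SE 0.13, adjusted p = 0.281 from limma over 3 pairs) and 0.76 for Cyp4a10 (SE 0.15, adjusted p = 0.371).

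Acot1 and Acot2, which release fatty acids from coenzyme A, had mean differences of 0.48 and 0.45, and Acot2 varied little, at 0.49, 0.50 and 0.36. The core enzymes differed by less, among them Cpt1a, the gate of fatty acids into mitochondria, at 0.19, 0.15 and 0.20, and Acadvl, which begins the oxidation of long chains, at 0.24, 0.24 and 0.25. The members below 0 in a segment were Acads and Bdh1 in the proximal one and Acadm, Hadhb, Eci1, Slc25a20 and Bdh1 in the distal one, down to −0.28 for Bdh1, which makes ketone bodies. In the low-fat pools 17 of the 25 genes were higher in all 3 segments, beside 2057 of all 11920 genes, with list medians of 0.06, 0.07 and 0.12. The PPAR response element, searched on both strands as a pair of AGGNCA copies in the same orientation with 1 base between them, in the 250 bases before each start, was found in 0 of the 20 list genes with a promoter and in 0.4% of all 27025 genes with one. No match says only that these letters are not in this window. For 17 genes of chylomicron assembly and fat uptake the medians were 0.04, 0.06 and 0.18, with 8 higher in all 3 segments, beside 18.8% of all genes. Fabp1 (0.41), a fatty acid carrier of enterocytes, had the largest distal value. The medians of 19 cholesterol synthesis genes were 0.11, 0.01 and 0.07. Peptidases and amino acid transporters were slightly lower, with 12 of 15 genes lower in all 3 segments, beside 12.8% of all genes, and medians of −0.15, −0.14 and −0.06. The peptide transporter Slc15a1 differed by −0.37, −0.25 and −0.19.

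**Figure D3:**
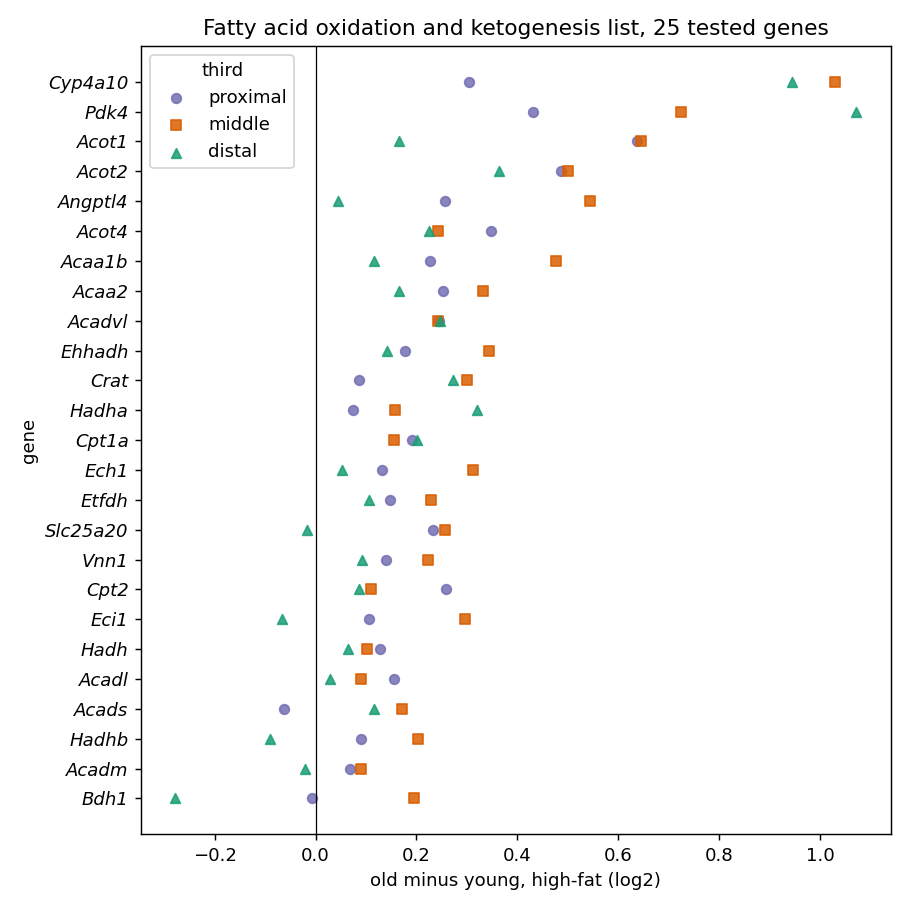
Old minus young difference on the high-fat diet (log2, x axis) of the 25 tested genes of fatty acid oxidation and ketogenesis (y axis, ordered by their mean), with the proximal segment as circles, the middle as squares and the distal as triangles, 1 pair of arrays per point. Most points lie between 0 and 0.50, and Pdk4 and Cyp4a10 reach 1.07 and 1.03.

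Among genes on none of the pathway lists, Klrh1, a lectin-like receptor of natural killer cells, had levels of 6.57, 5.79 and 4.10 in old mice, against 4.85, 4.09 and 3.48 in young mice. Its mean difference was 1.35 (SE 0.21, n = 3 pairs, adjusted p = 0.27 from limma), and the young arrays and the old distal array lay below the intensity threshold. Plscr2, of the phospholipid scramblase family, had levels of 7.54, 5.94 and 5.27 in old mice, against 5.59, 4.75 and 5.12 in young mice, so that the pair hardly differed in the distal segment. Its young arrays and its old distal array also lay below the intensity threshold. Upb1, the last enzyme of pyrimidine breakdown and named after its values were seen, had levels of 8.91, 7.76 and 6.23 in old mice, against 8.21, 6.74 and 5.71 in young mice. Its mean difference was 0.74 (SE 0.11, adjusted p = 0.239 from limma), and it differed by 0.56, 1.01 and 0.76 in the low-fat pools. Card6, of the caspase recruitment domain family, differed by 0.55, 0.62 and 0.57, and Cntnap1, an axonal membrane protein, by 0.58, 0.62 and 0.88. Both were singled out after their values were seen, and Cntnap1 did not exceed an intensity of 100 on any array. Mcpt1, the mast cell protease of the mucosa, had levels of 4.66, 4.96 and 4.42 in old mice, against 4.93, 6.06 and 5.42 in young mice. All of its arrays but the young middle one lay below the intensity threshold.

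Immunoglobulin genes differed in both directions. Of 10 tested genes, 2 passed 2-fold upward and 2 downward proximally, 2 upward and 0 downward in the middle segment, and 0 upward and 4 downward distally, where all 10 were lower. The kappa variable gene Igkv19-93 had levels of 9.57, 9.43 and 7.32 in old mice, against 11.11, 10.42 and 10.26 in young mice. Igkv6-20 differed by −1.10, −0.57 and −1.27. Igkv4-91, of the same gene cluster, differed by 1.73, 2.10 and −0.35, and the heavy chain constant gene Ighg3 by 1.13, 1.43 and −0.23. Probes to variable genes may cross-hybridize within the family, which was not tested.

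Whether the age difference depended on the diet was tested as the age difference on the high-fat minus that on the low-fat diet, over the 3 segments. limma called 0 of 11920 genes (0%), with the smallest adjusted p at 0.999, and 317 genes had an unadjusted p under 0.05. All of its values rest on 1 pool per age and diet. The values most unlike between the diets belonged to Ighg3 (2.36, SE 0.71) above 0 and to Mt2 (−1.32, SE 0.34) below 0. Mt2, a metallothionein that binds zinc and copper, had levels of 8.95, 8.69 and 8.83 in old mice, against 9.40, 8.67 and 8.94 in young mice on the high-fat diet, and differed by 0.80, 1.56 and 1.05 on the low-fat diet. Its neighbour Mt1 differed by −0.22, −0.09 and −0.08 on the high-fat diet and by 0.69, 0.61 and 0.74 on the low-fat diet (difference −0.81, SE 0.13, unadjusted p = 9.96e-05 and adjusted p = 0.999 from limma).

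Tifa, which was lower in old mice in each segment on both diets, had a diet difference of −0.65 (SE 0.16, adjusted p = 0.999), and Rps4l had 0.11 (SE 0.20). Next to Mt2 below 0 stood Igkv4-91 (−1.20), Igkv6-20 (−1.05), Igkv19-93 (−0.97) and Fabp6 (−0.94). Next to Ighg3 above 0 stood Klrh1 (0.90), Igkv10-96 (0.86), Serpina1c (0.71), an alpha-1-antitrypsin gene, and Zyg11a (0.71). The lists of muscle, heat shock, Paneth cells and fatty acid oxidation had medians of the same sign on both diets in each segment. The lists of B cells and T cells had distal medians of −0.54 and −0.51 on the high-fat diet, and of 0.03 and −0.04 on the low-fat diet.

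**Figure D4:**
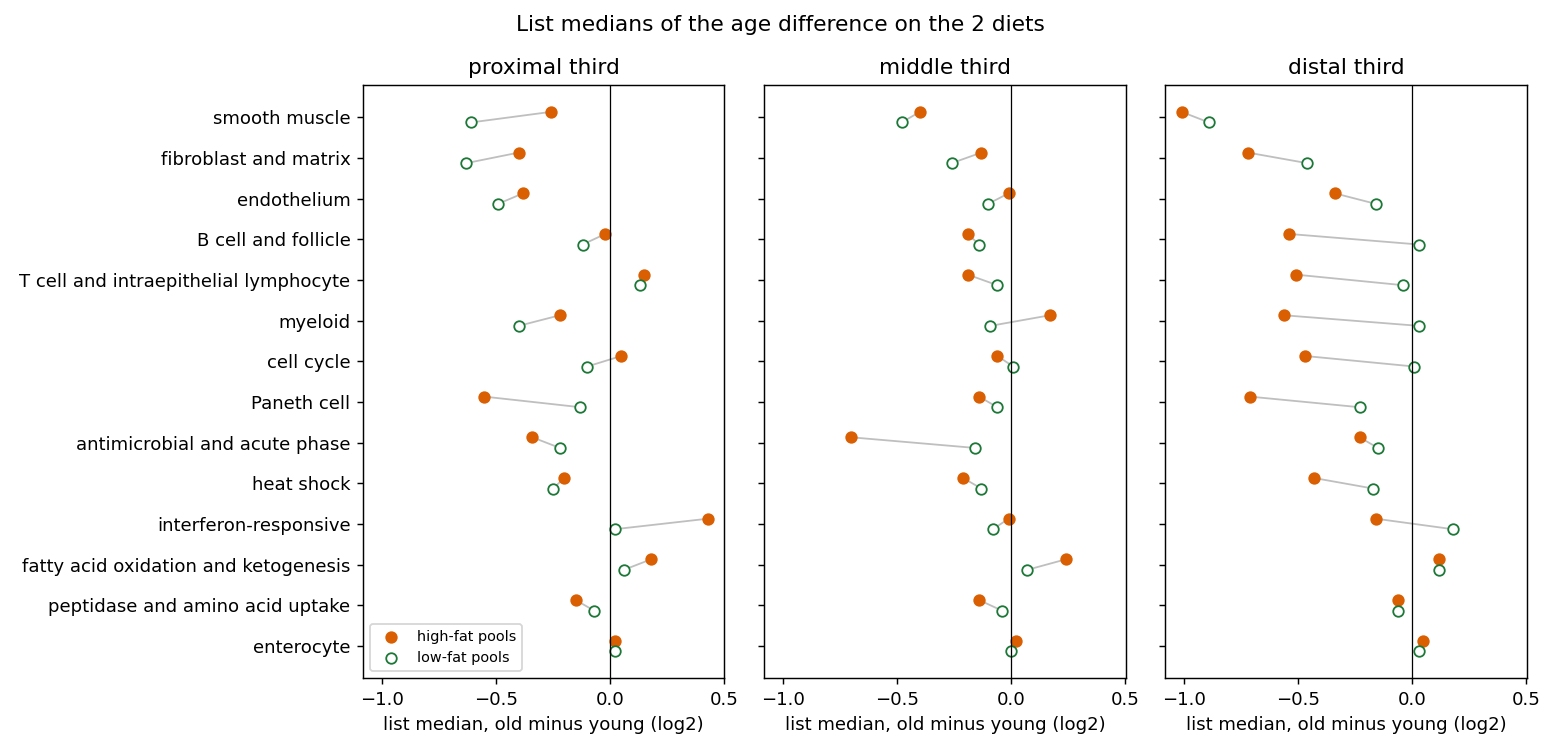
List medians of the old minus young difference (log2, x axis) for the 14 lists (y axis) in each segment, in high-fat pools (filled orange) and low-fat pools (open green), 1 pair of arrays per diet and segment. For fatty acid oxidation the medians were 0.18, 0.24 and 0.12 in high-fat pools and 0.06, 0.07 and 0.12 in low-fat pools. The diets lie further apart in the distal segment for B cells (−0.54 high-fat, 0.03 low-fat) and cell cycle genes (−0.47 high-fat, 0.01 low-fat). They also do so in the proximal segment for interferon-responsive genes (0.43 high-fat, 0.02 low-fat).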

How the data were processed

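RNA of each pool was hybridised to Affymetrix Mouse Gene 1.0 ST arrays, all in 1 experiment. The authors deposited log2 values of 35556 transcript-cluster probe sets made with Robust Multi-array Average, a version of which is not given in the sources used here; quantile normalization in it sets the arrays to a common distribution. Groups came from the sample titles, and arrays were paired by segment, which the labels number. Of the probe sets, 21789 carried 1 gene symbol, 1621 several and 12146 none; the brightest of 1 symbol stood for each of 19938 genes, and 813 tested genes had several. An intensity over 50 on at least 1 of the 12 arrays was required (11948 genes), and 28 acinar genes were removed, which left 11920. Paired differences were tested with limma 3.58.1 in R 4.3.3 (2 residual degrees of freedom, 4.49 prior degrees of freedom, prior SD 0.11), with Benjamini-Hochberg adjustment and a threshold of 0.05; the diet contrast used all 12 arrays. The script was tested on simulated data. The number of arrays limits the precision. Python 3.11.15 with pandas 2.3.3 did the rest.

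The comparison and the 40 gene lists (602 members, 480 tested) were chosen with earlier results of these data known. Genes were named from those called, the 8 largest rises and falls of each segment over 2-fold, and those over 2-fold in 2 segments. The 5 largest diet differences in each direction and the 4 largest members of each list were also eligible. Not every gene that met this rule is given. Genes given beyond it are marked or stand in a list's description. Alternatives covered the intensity filter, acinar genes, normalization, probe sets, the variance model, the block and each segment left out. The labels and the methods differ on the length of the low-fat run-in and of the chow period. Promoters came from RefSeq (GRCm38.p6), matched by symbol for 9530 tested genes; a gene with several starts counted once if any window held the motif.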

Additional observations from a re-analysis of the deposited data

How the results depend on the processing

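Of the tests over the 3 segments, the count of higher genes (0) became 2 with 12 arrays in 1 fit, and ran from 1 to 28 with each segment left out; the count of lower genes (1) became 2 after quantile normalization, 0 with the mean of probe sets, 4 with an intensity trend and robust variance and 5 with 12 arrays, and ran from 0 to 121 with each segment left out, with 121 without the proximal, 16 without the middle and 0 without the distal pair. In a fit that was not paired, with no replicate block, 0 genes were called in either direction, with 160 at an unadjusted p under 0.05 and Rps4l at an adjusted p of 0.0809 from limma. A pair of segments leaves 1 residual degree of freedom. The diet contrast called 0 genes under every alternative run, with 51 (no replicate block) to 686 (no intensity filter) at an unadjusted p under 0.05. At 1.5-fold in place of 2-fold, the higher genes numbered 52 proximally, 52 in the middle and 86 distally, and the lower genes 102, 61 and 353; the other alternatives stayed within 1.5 times of the 2-fold counts. Without the distal segment 41 in place of 101 genes were over 2-fold in at least 1 segment, and the counts ran from 41 to 88 over the segments left out. For 18 genes with a mean difference over the segments, no alternative turned the sign. The other variance model, the fit to 12 arrays and the fit without a block return the same mean, so they could not turn it. Leaving out a segment could not turn it either where a gene had the same sign in all 3 segments. Signal limits Saa1, Ms4a1, Mx2 and Mcpt1, at or below an intensity of 50 on 5 of the 6 arrays, Klrh1 and Plscr2 on 4, Nos2 on 3, Fabp6 and Duox2 on 2, and other genes named with their levels where these are under 5.64.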

Other observations

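Some clock genes differed in opposite directions, which the report does not describe. Arntl, which drives the clock, had levels of 8.51, 8.58 and 8.74 in old mice, against 8.05, 8.23 and 8.46 in young mice on the high-fat diet. Its targets Dbp and Per2 were on the other side, with Dbp at 7.79, 7.76 and 6.37 in old mice, against 8.24, 8.34 and 7.68 in young mice, and Per2 at 6.36, 6.13 and 6.58 in old mice, against 6.70, 6.74 and 6.91 in young mice. Nfil3, which represses genes that Dbp activates, differed by 0.59, 0.08 and 0.45. The mean differences were 0.36 for Arntl, −0.78 for Dbp and −0.42 for Per2 (adjusted p = 0.391, 0.39 and 0.39 from limma over 3 pairs). On the low-fat diet Arntl differed by 0.14, 0.00 and 0.01, Dbp by −0.58, −0.17 and −0.56, and Per2 by 0.02, −0.21 and −0.02. Of 14 tested clock genes 4 were higher and 5 lower in all 3 segments on the high-fat diet, beside 18.8% and 12.8% of all genes. The genes given above had some of the largest differences of the list in at least 1 segment. The list as a whole was mixed, with medians of −0.07, −0.15 and 0.02 and with 9, 8 and 6 genes lower. The hour of killing was not tested.

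Ces1g, a carboxylesterase that acts on lipids, had levels of 8.46, 6.86 and 6.25 in old mice, against 7.74, 6.20 and 5.70 in young mice, and Pparg, a receptor of fatty acids, had 9.07, 8.53 and 7.46 in old mice, against 8.79, 8.05 and 6.95 in young mice. Plscr4, a relative of Plscr2, had levels of 7.58, 7.83 and 7.25 in old mice, against 7.22, 6.98 and 6.48 in young mice, and differed by 0.08, −0.05 and −0.13 on the low-fat diet. These genes were chosen after their values were seen.

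Probe sets without a gene symbol were not part of the tests. Of 12146, 6001 passed the intensity threshold, and 250 of these were over 2-fold higher and 62 lower in old mice in the distal segment, against 140 higher and 75 lower in the proximal and 59 higher and 100 lower in the middle segment. What they measure is not given in the sources used here.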
